A study of Homo sapiens with 12 samples.

Results

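HNF4A, FOXA1, FOXA2, GATA6, CEBPA, CEBPB, CEBPD and NR0B1 were followed as 8 epithelial lineage transcription factors in A549 cells exposed to TGFβ. Some of them are better known for other roles, given below. The 8 were chosen by name, with earlier results of these data known. All 8 had a row among the 15871 protein-coding genes of the count table. HNF4A rose to 4.66 times its untreated level at 12 h, NR0B1 fell 10.3-fold, FOXA2 and CEBPD fell, FOXA1, GATA6 and CEBPB did not pass the test at any time, and CEBPA gave 1 molecule in all. A549 is a human lung adenocarcinoma line that is epithelial when untreated, and TGFβ drives it through the epithelial-to-mesenchymal transition (EMT). Cells were treated with 4 ng/mL TGFβ for 0.5 h, 12 h, 24 h, 48 h or 96 h, or not treated (0 h), with 2 libraries for each of the 6 times. Single cells were sorted into 384 wells per library and read by CEL-Seq2, which counts molecules at the 3′ end of each mRNA with a unique molecular identifier (UMI). All 12 libraries come from the same line. Untreated libraries matched to the later times were not analysed here, so exposure to TGFβ and time in culture cannot be told apart.

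HNF4A and NR0B1 are nuclear receptors. HNF4A binds DNA as a homodimer and drives genes of hepatocytes and of gut epithelium, while NR0B1 (DAX1) lacks the usual DNA-binding domain and acts as a corepressor, best known in the adrenal gland and the gonads. FOXA1 and FOXA2 are forkhead pioneer factors that open chromatin in lung, liver and other endoderm-derived epithelia, where GATA6 acts beside them. CEBPA, CEBPB and CEBPD are basic leucine zipper factors. CEBPA is tied to differentiated alveolar and liver cells, and CEBPB and CEBPD to inflammation and the acute phase response. TGFβ acts through receptor kinases that phosphorylate SMAD2 and SMAD3, which then bind DNA with partner factors.

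After limits on wells, 1871 of 4608 wells were kept, 54 to 217 cells per library, with the fewest at 96 h, where 14.1% and 16.7% of wells were kept. Median depth ran from 14137 UMIs per cell at 48 h replicate 2 to 28045 at 0.5 h replicate 1, and library sums ran from 1264044 to 4500036 UMIs of protein-coding genes. The labels do not say whether the libraries of a time came from separate cultures, so the p-values cover the spread between libraries, which could be technical alone. KRT7 (142640 UMIs) and KRT8 (39397 UMIs), keratins of simple epithelium, were abundant in the kept cells, while EPCAM, an epithelial adhesion molecule, had only 156 UMIs. PTPRC, which marks immune cells, had 0 UMIs, the myeloid markers CD14 and ITGAM had 124 and 48 UMIs, and the endothelial markers PECAM1 and CDH5 had 1 UMI each. The unit of level is CPM: UMIs of the gene in the library sum per 1000000 protein-coding UMIs, with TMM scaling.

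In GENCODE 44 (GRCh38), HNF4A spans chr20:44355699-44432845 on the forward strand, with 10 exons in its canonical transcript. NR0B1 lies at chrX:30304206-30309390 on the reverse strand. The sequences before the starts of HNF4A and NR0B1 are shown because these genes moved most, and in opposite directions. HNF4A has a distal and a proximal promoter that feed the same 3′ exons, so counts at the 3′ end cannot tell them apart. Each line gives the 250 bases before a RefSeq start (GRCh38.p14, 5′ to 3′ on the gene's strand), and capitals mark matches to the motifs named after them:
HNF4A distal promoter, chr20:44355449-44355698: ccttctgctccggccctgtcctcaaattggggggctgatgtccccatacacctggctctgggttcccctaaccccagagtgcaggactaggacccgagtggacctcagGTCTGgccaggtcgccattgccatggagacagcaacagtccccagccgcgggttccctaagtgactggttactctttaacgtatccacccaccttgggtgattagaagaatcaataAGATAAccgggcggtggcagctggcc
HNF4A proximal promoter, chr20:44400989-44401238: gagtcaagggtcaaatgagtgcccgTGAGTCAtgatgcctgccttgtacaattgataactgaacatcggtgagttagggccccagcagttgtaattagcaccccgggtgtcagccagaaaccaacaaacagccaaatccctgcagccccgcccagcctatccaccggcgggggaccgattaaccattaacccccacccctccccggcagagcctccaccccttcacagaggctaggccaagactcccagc
NR0B1 promoter, chrX:30309391-30309640: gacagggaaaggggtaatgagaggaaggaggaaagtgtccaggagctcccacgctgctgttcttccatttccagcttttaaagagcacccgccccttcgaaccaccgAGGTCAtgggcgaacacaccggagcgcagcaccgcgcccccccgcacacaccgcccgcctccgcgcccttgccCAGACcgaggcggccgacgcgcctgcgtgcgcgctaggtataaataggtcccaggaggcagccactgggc

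Motifs were searched on both strands. The distal HNF4A window holds the GATA motif AGATAA at -26 and the SMAD motif CAGAC, on the other strand, at -142, counted from the start to the first letter of the match. The proximal HNF4A window holds the AP-1 motif TGANTCA at -225. The NR0B1 window holds AGGTCA, the core of many nuclear receptor sites including those of HNF4A, at -143 and CAGAC at -70. Of 35116 RefSeq promoter windows of the same length, 9.17% hold AGATAA, 38.0% CAGAC, 6.57% TGANTCA and 12.1% AGGTCA. The paired SMAD motif GTCTAGAC (0.182% of windows), the forkhead motifs TGTTTAC (2.98%) and TATTTAC (2.40%), the C/EBP motif TTGCNNAA (9.05%) and the antioxidant response element TGACNNNGC (10.9%) had no match in these 3 windows. The matches describe the letters and were not tested for binding.

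HNF4A was at 27.1 and 31.0 CPM at 0 h, 26.7 and 23.4 CPM at 0.5 h, 121 and 149.7 CPM at 12 h, 133 and 118 CPM at 24 h, 145 and 124 CPM at 48 h, and 87.9 and 93.9 CPM at 96 h (replicate 1, then replicate 2). All 8 libraries from 12 h on lay above all 4 libraries of 0 h and 0.5 h. These levels came from 99 and 107 UMIs at 0 h and from 476 and 570 UMIs at 12 h. Against 0 h, the log2 change was 2.22 ± 0.18 at 12 h (SE, adjusted p = 1.71e-09 by edgeR's quasi-likelihood test), 2.11 ± 0.18 at 24 h, 2.22 ± 0.18 at 48 h and 1.65 ± 0.19 at 96 h (adjusted p = 3.50e-07). At 0.5 h it was -0.22 ± 0.19, with both libraries below both of 0 h, and did not pass. In order, 12 h, 48 h and 24 h overlapped in their libraries, 96 h lay below them, and 0 h and 0.5 h came last. The steps between successive late times did not pass the test. The log2 change was -0.57 ± 0.17 at 96 h against 48 h (adjusted p = 0.121), although the libraries did not overlap.

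NR0B1 took the opposite course. It was at 56.1 and 93.8 CPM at 0 h, 73.3 and 53.3 CPM at 0.5 h, 6.11 and 8.41 CPM at 12 h, 6.88 and 11.5 CPM at 24 h, 10.4 and 10.3 CPM at 48 h, and 9.33 and 5.33 CPM at 96 h. All 8 libraries from 12 h on were below all 4 earlier ones, and among the 8 no step passed. In molecules, 24 and 32 UMIs were counted at 12 h, against 205 and 324 UMIs at 0 h. The log2 change against 0 h was -3.36 ± 0.29 at 12 h (adjusted p = 2.09e-08, edgeR) and -3.37 ± 0.36 at 96 h (adjusted p = 2.38e-07), with -3.08 at 24 h and -2.85 at 48 h, both past the threshold. The spread between the 0 h libraries, 75.0 ± 26.6 CPM (SD, n = 2), was the widest of NR0B1 at any time.

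**Figure D1:**
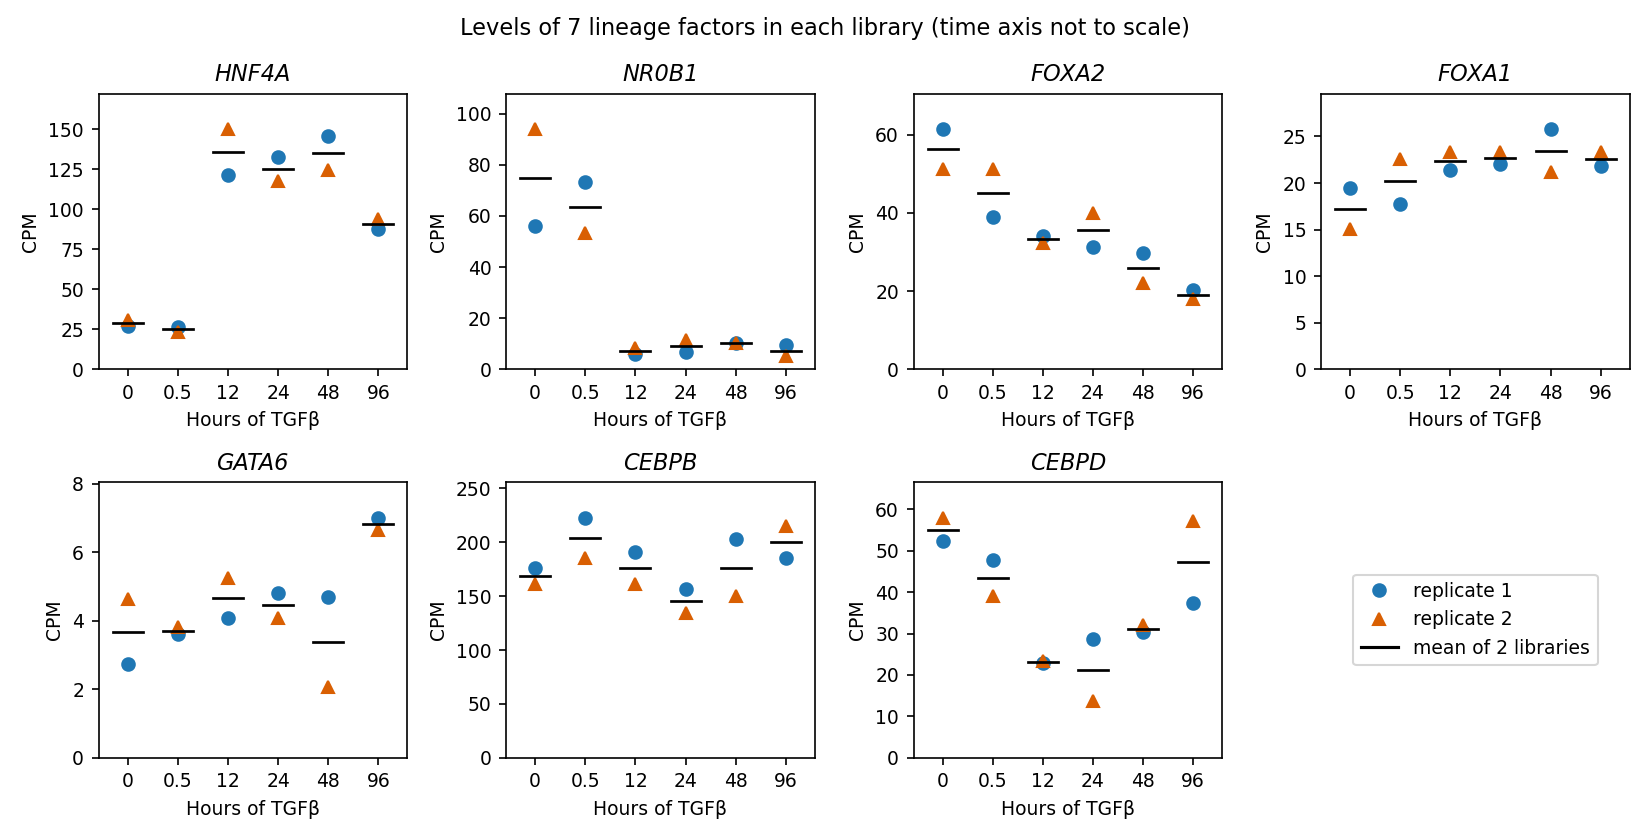
Levels in CPM (linear axes from 0) of 7 factors in each of the 12 libraries against hours of TGFβ (time axis not to scale), with circles for replicate 1, triangles for replicate 2 and bars for the mean of 2 libraries. HNF4A libraries from 12 h on sit between 87.9 and 149.7 CPM, above the 23.4 to 31.0 CPM of 0 h and 0.5 h, while NR0B1 libraries from 12 h on sit at 11.5 CPM or below.

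FOXA2 fell against 0 h at each time from 12 h on. It was at 61.3 and 51.2 CPM at 0 h, 39.1 and 51.3 CPM at 0.5 h, 34.1 and 32.3 CPM at 12 h, 31.2 and 40.0 CPM at 24 h, 29.8 and 22.2 CPM at 48 h, and 20.2 and 18.0 CPM at 96 h. From 12 h on every library was below both 0 h libraries, and the 96 h libraries were the lowest of the 12. The log2 change against 0 h was -0.76 ± 0.20 at 12 h (adjusted p = 0.00965, edgeR), -0.68 ± 0.20 at 24 h (adjusted p = 0.0239), -1.09 ± 0.21 at 48 h (adjusted p = 0.000533) and -1.56 ± 0.25 at 96 h (adjusted p = 3.52e-05). The calls at 12 h and 24 h rested on few libraries. Without 0 h replicate 1, 12 h replicate 1 or 12 h replicate 2, the 12 h change was -0.62, -0.80 or -0.69 and no longer passed, and without 0 h replicate 1 or 24 h replicate 1 the 24 h change was -0.54 or -0.50 and no longer passed. Among the 206 cells left by stricter limits of 3000 genes or more and no more than 20% mitochondrial UMIs, the FOXA2 change at 96 h against 0 h was -1.65, close to its value in all kept cells, with an adjusted p of 0.0900.

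FOXA1, the other forkhead factor, was at 15.1 to 25.7 CPM over the 12 libraries, and all 8 libraries from 12 h on were above both libraries of 0 h. It was at 21.8 and 23.3 CPM at 96 h, against 19.4 and 15.1 CPM at 0 h, a log2 difference of 0.39 ± 0.26 (adjusted p = 0.317, edgeR). Its fitted differences against 0 h were 0.23 to 0.45 at the 5 treated times and none passed. The 12 h value was 0.37 ± 0.22, and it was -0.20 ± 0.32 with each library sum thinned to the smallest. In cells thinned to 10000 UMIs, the mean was 0.215 FOXA1 UMIs per cell at 12 h, against 0.149 at 0 h, and in cells thinned to 5000 UMIs it was 0.119 at 12 h, against 0.0864 at 0 h. GATA6 was the least abundant factor that could be tested, with 4 to 21 UMIs per library. It was at 7.001 and 6.66 CPM at 96 h, against 2.74 and 4.63 CPM at 0 h. Both 96 h libraries were the highest of the 12, but the log2 difference of 0.89 ± 0.49 did not pass (adjusted p = 0.213).

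The C/EBP factors differed from each other. CEBPB was the most abundant member by UMIs, at 134.5 to 222.6 CPM in the 12 libraries. It was at 186 and 215 CPM at 96 h, against 177 and 162 CPM at 0 h, a log2 difference of 0.25 ± 0.17 (adjusted p = 0.326, edgeR). At no time did CEBPB pass against 0 h, and its largest difference, 0.27 ± 0.16 at 0.5 h, came with an adjusted p of 1. CEBPD was lower from 12 h to 48 h and overlapped with its untreated level at 96 h. It was at 52.3 and 57.9 CPM at 0 h, 47.8 and 39.1 CPM at 0.5 h, 22.9 and 23.4 CPM at 12 h, 28.7 and 13.7 CPM at 24 h, 30.4 and 32.0 CPM at 48 h, and 37.3 and 57.3 CPM at 96 h. The libraries of 12 h, 24 h and 48 h all lay below those of 0 h and 0.5 h, and those of 96 h overlapped with 0 h.

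The log2 change of CEBPD against 0 h was -1.25 ± 0.24 at 12 h (adjusted p = 0.000737, edgeR) and -1.32 ± 0.25 at 24 h (adjusted p = 0.000454). At 48 h it was -0.82 ± 0.25 (adjusted p = 0.0210), and at 96 h it was -0.21 ± 0.25 and did not pass. Neither step of the return passed: 48 h against 24 h gave 0.50 ± 0.27 (adjusted p = 0.346) and 96 h against 48 h gave 0.61 ± 0.27 (adjusted p = 0.380). Replicate 2 of 24 h was much lower than replicate 1. Without 24 h replicate 1, the CEBPD change at 24 h against 0 h was -2.01 and the step to 48 h, 1.18, passed. The 48 h call was lost without 0 h replicate 1 (-0.90), 0 h replicate 2 (-0.78), 48 h replicate 1 (-0.79) or 48 h replicate 2 (-0.86). CEBPA had 0 UMIs in 11 libraries and 1 UMI in replicate 2 of 96 h. A count of 0 allows up to 0.667 to 2.37 CPM per library, taken as 3 counts and covering counting error only, so CEBPA was not tested.

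Read against all genes, 4 of the 7 tested factors passed at 12 h against 0 h, where 14.3% of the 10465 genes tested passed in either direction. The same number passed at 24 h (13.2% of all genes) and at 48 h (18.5%), and 3 of 7 at 96 h (23.7%). None of the 7 passed at 0.5 h against 0 h, where 0.44% of all genes did. None passed at 48 h against 24 h (5.24% of all genes) or at 96 h against 48 h (1.21%). At 24 h against 12 h no gene at all passed in edgeR (0% of all genes, with 572 genes at an unadjusted p under 0.05 and 2 past the threshold in DESeq2). The comparisons with 0 h share the same 2 control libraries and are not independent of each other. The members were chosen with earlier results of these data known, so their counts do not measure an excess over all genes. How many of all genes have libraries that do not overlap between times was not counted. Such separation is therefore given for the members as a description only.

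**Figure D2:**
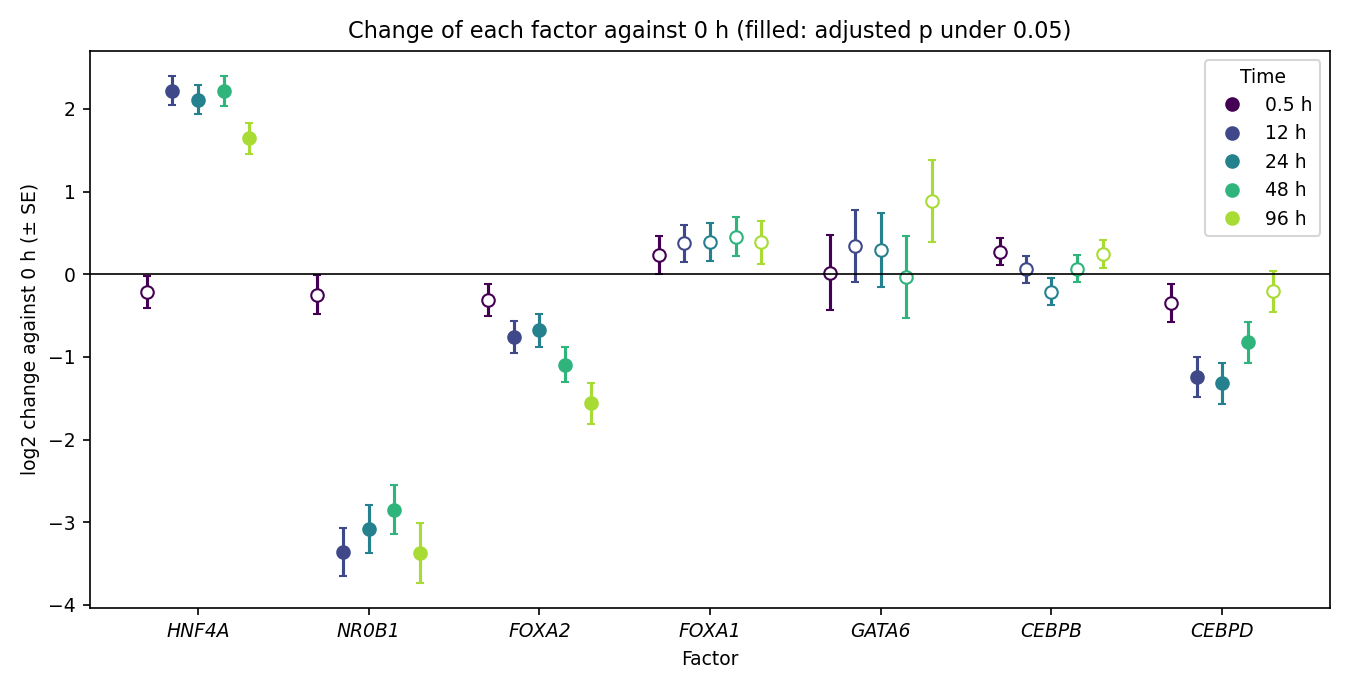
Fitted log2 change against 0 h (vertical axis, ± SE) of 7 factors at 0.5 h, 12 h, 24 h, 48 h and 96 h, from left to right within each factor, with filled points for an adjusted p under 0.05. HNF4A is filled above 0 from 12 h on (2.22 at 12 h), NR0B1 and FOXA2 are filled below 0 from 12 h on, CEBPD is filled below 0 at 12 h, 24 h and 48 h only, and FOXA1, GATA6 and CEBPB have open points throughout.

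HNF4A was set against each of the other factors as the difference of their log2 changes, given with its SE and without a test. This SE joins those of both changes as if they were independent, although both come from the same libraries. At 12 h against 0 h HNF4A exceeded FOXA1 by 1.85 ± 0.29, GATA6 by 1.88 ± 0.47, CEBPB by 2.16 ± 0.24, FOXA2 by 2.98 ± 0.27, CEBPD by 3.47 ± 0.30 and NR0B1 by 5.58 ± 0.34. At 96 h against 0 h the excess was 1.26 ± 0.32 over FOXA1, 1.40 ± 0.25 over CEBPB, 1.86 ± 0.31 over CEBPD, 3.21 ± 0.31 over FOXA2 and 5.02 ± 0.41 over NR0B1. Over GATA6 it was 0.76 ± 0.53 at 96 h, which is less than 2 SE from 0. HNF4A was the only member whose change was called upward.

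The ratio of UMIs of HNF4A to those of another factor in the same library needs no scaling, and it was followed over time. It does not rank the genes by level, since capture can differ between them. Per NR0B1 UMI there were 19.8 and 17.8 HNF4A UMIs at 12 h and 9.42 and 17.6 at 96 h, against 0.483 and 0.330 at 0 h. Per FOXA2 UMI there were 3.55 and 4.63 HNF4A UMIs at 12 h and 4.35 and 5.22 at 96 h, against 0.442 and 0.605 at 0 h. In neither ratio did the libraries of 12 h or 96 h overlap with those of 0 h. Over the 12 libraries, the Pearson r of log2(CPM + 1) between HNF4A and NR0B1 was -0.93, between HNF4A and FOXA2 -0.67 and between FOXA2 and NR0B1 0.77, a description of 12 points that share their time course.

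Within single cells, shares were compared at equal depth by thinning each cell to 10000 UMIs, which left 1798 of the 1871 cells. The share of cells with an HNF4A UMI was 23.3% ± 6.99 (0 h), 19.6% ± 1.41 (0.5 h), 68.8% ± 7.62 (12 h), 55.6% ± 11.5 (24 h), 55.2% ± 1.83 (48 h) and 45.6% ± 7.36 (96 h) (SD, n = 2 libraries each). All libraries from 12 h on, the lowest at 40.4% (exact 95% interval 27.0% to 54.9%), were above all earlier ones, the highest at 28.2% (21.5% to 35.8%). The shares are given as a description and were not tested. Cells with at least 3 HNF4A UMIs were 19.99% ± 3.54 at 12 h and 9.40% ± 2.42 at 96 h, against 1.45% ± 0.31 at 0 h. Without thinning, the share with an HNF4A UMI was 84.1% ± 6.15 (12 h), against 37.3% ± 4.32 (0 h).

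The share of cells with an NR0B1 UMI was 44.5% ± 4.77 (0 h), 40.1% ± 7.02 (0.5 h), 6.39% ± 0.24 (12 h), 7.06% ± 1.196 (24 h), 6.97% ± 2.30 (48 h) and 9.74% ± 2.55 (96 h). That of FOXA2 was 37.9% ± 0.18 (0 h), 32.9% ± 2.10 (0.5 h), 25.7% ± 1.56 (12 h), 23.3% ± 2.19 (24 h), 20.01% ± 8.41 (48 h) and 14.7% ± 1.71 (96 h). The share for CEBPD was 38.0% ± 2.66 (0 h), 30.1% ± 2.74 (0.5 h), 18.6% ± 0.06 (12 h), 14.4% ± 6.76 (24 h), 23.2% ± 0.38 (48 h) and 31.4% ± 1.79 (96 h). CEBPB UMIs were found in 58.6% to 78.6% of cells per library, FOXA1 UMIs in 8.59% to 26.9% and GATA6 UMIs in 1.84% to 4.78%. FOXA1 UMIs were in 26.9% and 15.9% of cells at 96 h, against 17.8% and 8.59% at 0 h, so its groups overlapped.

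**Figure D3:**
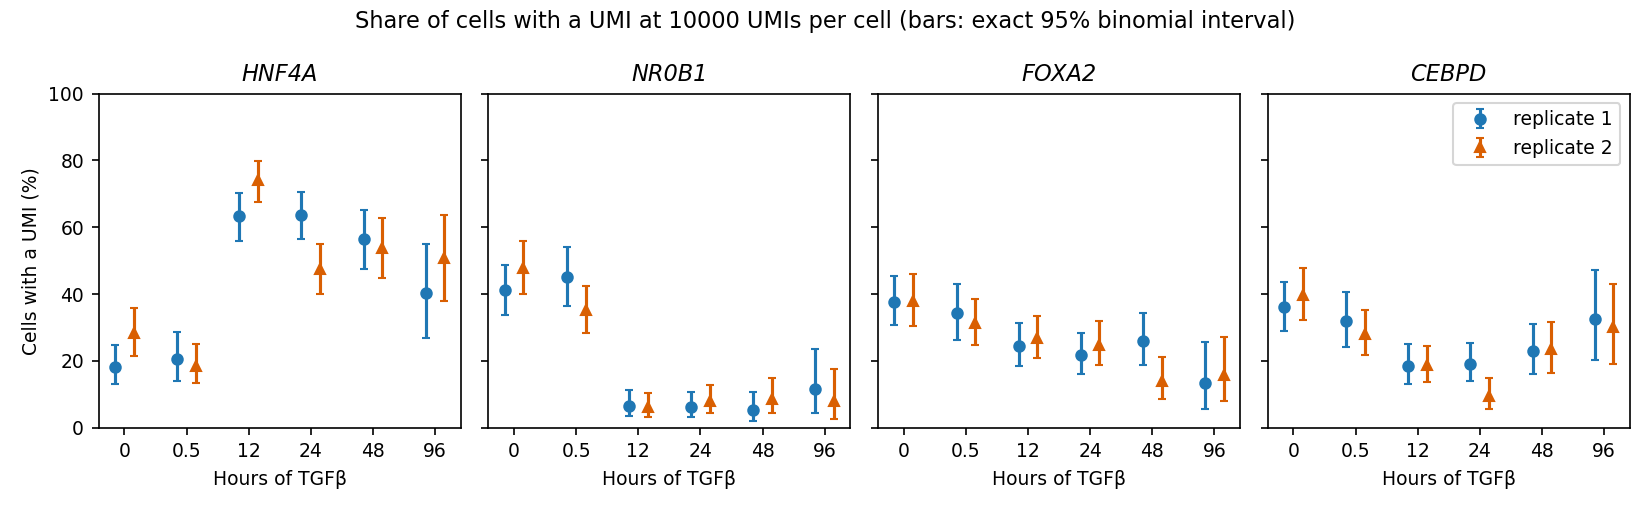
Share of cells (%) with at least 1 UMI of HNF4A, NR0B1, FOXA2 or CEBPD after thinning to 10000 UMIs per cell, against hours of TGFβ (axis not to scale), with 1 point per library (circles replicate 1, triangles replicate 2) and exact 95% binomial intervals that cover counting error only. HNF4A sits between 40.4% and 74.2% from 12 h on and NR0B1 at 11.5% or below, while CEBPD averages 14.4% at 24 h and 31.4% at 96 h.

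No cell type without these factors is in the series, so wells with fewer than 1000 detected genes served as the background for the shares. Before thinning, 1.198% to 1.74% of such wells held an HNF4A UMI at 0 h and 10.97% to 11.6% at 12 h, against 34.3% to 40.4% and 79.8% to 88.5% of kept cells at those times. Their depth was far lower, with medians of 496 to 1312 UMIs per well. Summed, these wells were at 14.2 CPM of HNF4A at 0 h, 19.0 CPM at 0.5 h, 124 CPM at 12 h, 93.0 CPM at 24 h, 112 CPM at 48 h and 96.1 CPM at 96 h. These sums rest on 5 to 44 HNF4A UMIs per time, and they were lower at 0 h and 0.5 h than at each later time, as in the kept cells. The part of free RNA in the shares was not tested.

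Within each library, cells with an HNF4A UMI were also set against cells without one at 10000 UMIs. CEBPB was lower in cells with an HNF4A UMI in 9 of 12 libraries, with a mean over libraries of 1.52 UMIs per cell with and 1.68 without, but at 5000 UMIs it was lower in 6 of 12. NR0B1 was higher in 8 of 12 libraries at 10000 UMIs and in 6 of 12 at 5000 UMIs. FOXA1, GATA6 and CEBPD were higher in 6 of 12 libraries and FOXA2 in 5, and at 5000 UMIs FOXA1 was higher in 8, CEBPD in 6, GATA6 in 5 and FOXA2 in 4. No factor was on the same side of cells without an HNF4A UMI in all 12 libraries, and these counts were not tested. Cells without an HNF4A UMI after thinning can still hold HNF4A molecules. At 12 h 84.1% of cells had such a UMI before thinning and 68.8% at 10000 UMIs. The variance of HNF4A UMIs over their mean was 1.03 to 1.67 per library at 0 h and 0.5 h and 1.46 to 2.01 from 12 h on, where a value of 1 is that of counting alone. This ratio can rise with the mean, which was 0.290 UMIs per cell at 0 h and 1.36 at 12 h. Whether cells varied more after TGFβ was not tested.

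Genes with the most similar profile were sought for each factor of at least 20 CPM on average, by Pearson r of log2(CPM + 1) over the 12 libraries among 5548 genes, as a description. For HNF4A they were ADGRG1, an adhesion G protein-coupled receptor (r = 0.988), ARHGEF18, an exchange factor for RhoA (0.979), and PDXK, the pyridoxal kinase (0.979). The log2 change of ADGRG1 was 3.03 ± 0.18 at 12 h and 2.203 ± 0.19 at 96 h against 0 h, and that of ARHGEF18 was 2.11 ± 0.21 and 1.63 ± 0.24. That course follows from their choice by likeness to HNF4A in the same libraries. For NR0B1 they were RDH10, a retinol dehydrogenase (r = 0.975), TXNRD1, the cytosolic thioredoxin reductase (0.964), and TRIML2 (0.964). RDH10 changed by -3.09 ± 0.23 at 12 h and -3.42 ± 0.29 at 96 h. For FOXA2 they were ATP5PB of the ATP synthase (0.968), the mitochondrial chaperone HSPD1 (0.959) and the N-acetyltransferase NAA50 (0.955), all with smaller falls, of 0.64 to 0.70 on the log2 scale at 96 h. CEBPD was closest to ACTR1B of dynactin (0.935), AC091230.1 (0.903) and TMED4 (0.897), CEBPB to PPP1R15A (0.833) and VAMP2 (0.817), and FOXA1 to LCOR (0.878) and MITD1 (0.877).

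None of the tested genes that HNF4A is known to drive in liver passed upward against 0 h at any time from 12 h on. Of 39 such genes in a list written by hand, 25 had a row and 8 passed the filter on low counts. This list and those below were written with earlier results of these data known. Their counts therefore do not measure an excess over all genes. At 12 h against 0 h, where HNF4A rose, 0 of the 8 rose and 1 fell, FGA, and the median log2 change of the 8 was -0.21, beside -0.02 for all genes tested. Among all genes tested at 12 h, 8.46% rose and 5.83% fell. By 48 h, 6 of the 8 passed downward and 0 upward, with a median of -3.19, where 8.48% of all genes fell and 10% rose. For 96 h, 7 passed downward and 0 upward, where 11.1% of all genes fell and 12.5% rose. FGA, APOH, FGB and AMBP had 0 UMIs at 96 h, so they passed the filter by their counts at earlier times. The untested genes of the list are not covered by these counts. The median at 96 h was -4.33 with genes that had no UMI placed at their bound and -5.62 as fitted, beside 0.02 for all genes tested. TTC39B was the only one of the 8 that did not pass at 96 h. Summed over the 25 genes, the list was at 259 to 278 CPM at 0 h, 222 to 291 CPM at 0.5 h, 241 to 292 CPM at 12 h, 170 to 211 CPM at 24 h, 31.5 to 43.1 CPM at 48 h and 23.3 to 25.7 CPM at 96 h.

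TM4SF4, a membrane protein with the most UMIs of the 8 tested genes, was at 134 and 145 CPM at 0 h, 122 and 182 CPM at 0.5 h, 188 and 145 CPM at 12 h, 115 and 85.2 CPM at 24 h, 6.02 and 3.10 CPM at 48 h, and 6.22 and 4.00 CPM at 96 h. Its log2 change against 0 h was 0.25 ± 0.19 at 12 h (adjusted p = 0.460) and -4.78 ± 0.34 at 96 h (adjusted p = 3.68e-10, edgeR). FGA, which encodes the fibrinogen alpha chain, fell earlier, to 37 and 41 UMIs at 12 h, against 114 and 101 UMIs at 0 h, a log2 change of -1.58 ± 0.25 (adjusted p = 7.66e-05). No FGA UMI was counted at 48 h or 96 h, which makes it at least 27.6-fold lower at 96 h than at 0 h against a floor of 3 counts over both libraries. FGB, the beta chain, and APOH, beta-2-glycoprotein I, had 0 UMIs at 96 h, at least 19.5-fold and 23.0-fold lower. At 12 h FGB was at 115 and 91 UMIs, against 69 and 83 UMIs at 0 h, and did not pass (log2 0.31 ± 0.25).

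**Figure D4:**
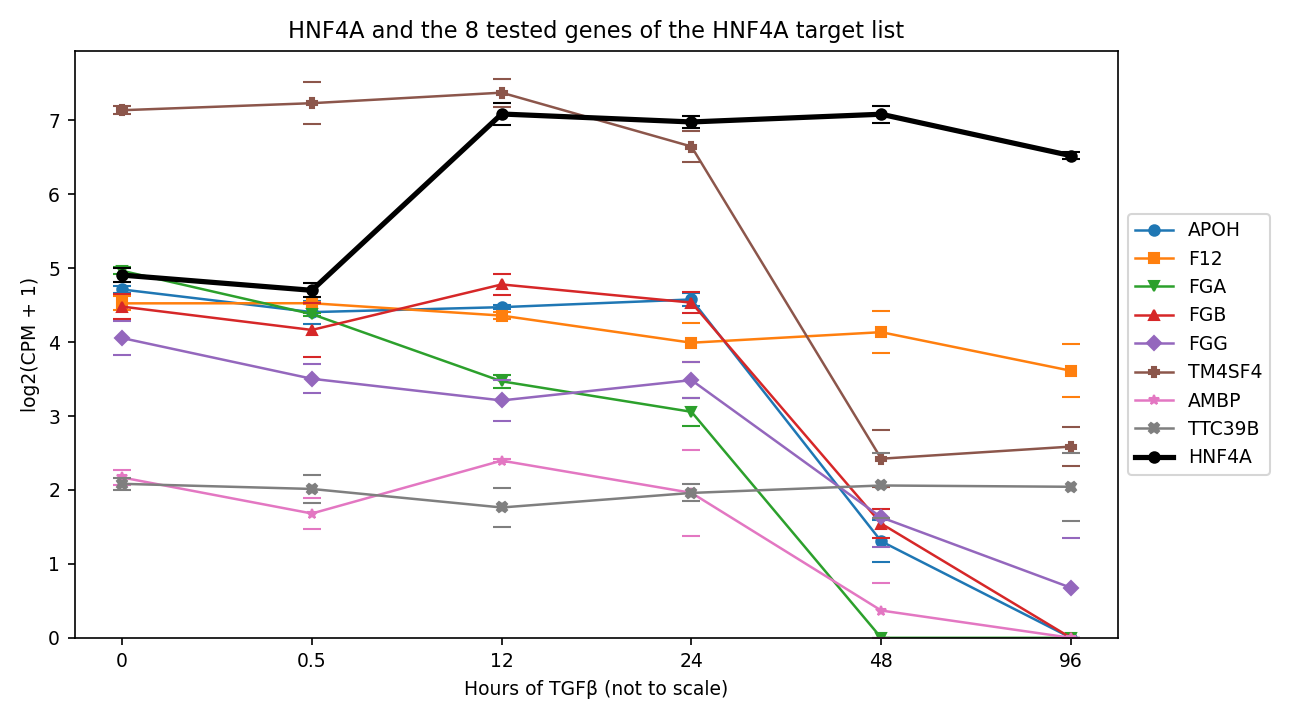
Mean log2(CPM + 1) at each time (lines; dashes are the 2 libraries) of HNF4A and of the 8 HNF4A target genes that passed the filter on low counts, against hours of TGFβ (not to scale). HNF4A steps up between 0.5 h and 12 h and remains high, while TM4SF4, APOH, FGB and FGG do not pass against 0 h up to 24 h and are lower at 48 h, and FGA is already lower at 12 h.

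Of 27 airway and surfactant genes known as targets of FOXA factors and GATA6, 21 had a row and 8 were tested. At 96 h against 0 h 1 rose (12.5% of all genes tested) and 5 fell (11.1%). The 2 that did not pass were ABCA3 (log2 change 0.51 ± 0.42) and TFF1 (-2.08 ± 0.96). The median at 96 h was -2.50 with genes at 0 UMIs placed at their bound and -2.58 as fitted. At 12 h 1 rose (8.46% of all genes tested) and 1 fell (5.83%). AGR2, a disulfide isomerase of mucus-producing cells, was at 122 and 154 CPM at 12 h and 0 and 1.33 CPM at 96 h, against 438 and 363 CPM at 0 h (adjusted p = 2.46e-14 at 96 h, edgeR). FOXP1, itself a forkhead factor of the lung, was the riser, at 293 and 297 CPM at 96 h, against 15.3 and 15.9 CPM at 0 h, a log2 change of 4.24 ± 0.18. MUC5B, a gel-forming mucin, had 0 UMIs at 96 h, against 23 and 36 UMIs at 0 h, at least 7.57-fold lower. As in the HNF4A list, genes with few or no UMIs at 96 h passed the filter by their counts at earlier times.

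Among 33 other lineage and epithelial transcription factors, 13 were tested. At 96 h 2 rose (12.5% of all genes tested) and 4 fell (11.1%), with a median of -0.06. ELF3, an ETS factor of epithelia, was at 146 and 163 CPM at 0 h, 224 and 192 CPM at 0.5 h, 56.0 and 58.1 CPM at 12 h, 24.3 and 19.6 CPM at 24 h, 38.1 and 18.6 CPM at 48 h, and 14.0 and 4.66 CPM at 96 h. Its log2 change at 96 h against 0 h was -4.09 ± 0.34 (adjusted p = 1.94e-08, edgeR). KLF5, a factor of gut and airway epithelium, changed by -1.25 ± 0.24. EHF, a relative of ELF3, had 1 UMI over both libraries at 96 h, against 36 UMIs at 0 h.

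Of 40 nuclear receptors and corepressors, 27 were tested, and 7 rose and 5 fell at 96 h, with a median of 0.01. Of all genes tested, 12.5% rose and 11.1% fell at 96 h. NR2F2, an orphan receptor known as COUP-TFII, was at 19.5 and 30.0 CPM at 96 h, against 67.1 and 91.2 CPM at 0 h, a log2 change of -1.66 ± 0.25, and it was already lower at 12 h (-1.56 ± 0.22). The orphan receptor NR4A3 was at a mean of 13.2 CPM at 96 h, against 0.708 CPM at 0 h, a log2 change of 4.13 ± 0.56.

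Of 10 relatives and partners of the C/EBP factors, 7 were tested, and 1 rose (12.5% of all genes tested) and 0 fell (11.1%) at 96 h. The riser was TRIB3, a pseudokinase of the integrated stress response (0.84 ± 0.22, adjusted p = 0.00619, edgeR). CEBPG, a C/EBP family member, rose at 12 h, to 155 and 153 CPM, against 103 and 96.1 CPM at 0 h (0.63 ± 0.15, adjusted p = 0.00403), and at 96 h was at 123 and 107 CPM without passing. Of 24 acute phase and inflammatory genes that C/EBP factors are known to regulate, 8 were tested. At 96 h 4 rose (12.5% of all genes tested) and 1 fell (11.1%), with a median of 0.42. TNFAIP6, a hyaluronan-binding protein, was at 69.2 and 75.9 CPM at 96 h, against 0.821 and 0.290 CPM at 0 h. The chemokine CCL2 was at 248 and 299 CPM at 96 h, against 107 and 96.1 CPM at 0 h (1.43 ± 0.19). CXCL2, a chemokine, was lowest at 0.5 h, at 3.91 and 4.32 CPM, against 31.5 and 55.3 CPM at 0 h (-3.38 ± 0.39, adjusted p = 7.87e-05, edgeR). It also passed at 12 h (-1.31 ± 0.32) and at 48 h (-1.69 ± 0.35), and did not pass at 24 h (-0.90 ± 0.31) or 96 h (-0.15 ± 0.33).

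NR0B1 is known to be expressed in lung cancer cells with active NRF2, the regulator of antioxidant genes, and A549 is such a line. Of 32 NRF2 target genes, 31 were tested. At 12 h against 0 h 0 rose and 17 fell, with a median of -0.54, and at 96 h 1 rose and 26 fell, with a median of -1.36, beside 0.02 for all genes tested. Of all genes tested, 8.46% rose and 5.83% fell at 12 h, and 12.5% rose and 11.1% fell at 96 h. AKR1B10, an aldo-keto reductase, was at 496 and 569 CPM at 96 h, against 6660 and 7223 CPM at 0 h, a log2 change of -3.70 ± 0.16. GCLC, the catalytic subunit of glutamate-cysteine ligase, was at 36.7 and 40.5 CPM at 12 h, against 176 and 149 CPM at 0 h (-2.07 ± 0.17). TXNRD1, picked above for its likeness to NR0B1 in these libraries, is 1 of the 31, and it changed by -1.41 ± 0.16 at 12 h. Activity of NRF2 was not measured, and a link between it and the fall of NR0B1 was not tested.

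The other members lie apart from each other. FOXA1 lies at chr14:37589552-37596059 (reverse), FOXA2 at chr20:22580998-22585455 (reverse), GATA6 at chr18:22169589-22202528 (forward), CEBPA at chr19:33299934-33302534 (reverse), CEBPB at chr20:50190830-50192668 (forward) and CEBPD at chr8:47736913-47738164 (reverse). The 3 C/EBP genes have 1 exon each. Genes next to the members were read for the chance that molecules were assigned to the wrong gene. HNF4A-AS1, which overlaps HNF4A on the other strand, had 1 UMI in the kept cells, TTC6, which overlaps FOXA1, had 17 UMIs, GATA6-AS1 had 16 UMIs and CEBPB-AS1 had 12 UMIs. LINC00261, 2356 bases from FOXA2 on the same strand, had 57 UMIs, and CEBPA-DT, beside CEBPA on the other strand, had 48 UMIs against the single CEBPA molecule. R3HDML, 4461 bases from HNF4A on the same strand, had only 56 UMIs in all. It passed upward against 0 h at 12 h (adjusted p = 0.0488, edgeR), at 24 h (0.00179) and at 48 h (0.000226), and the 12 h call was lost when all gene types entered the fit (adjusted p = 0.0576). FITM2, 44497 bases from HNF4A on the other strand, changed by 1.03 ± 0.20 at 12 h (adjusted p = 0.000623) and was at -0.09 ± 0.24 at 96 h without passing.

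Epithelial markers gave the setting. Of 16, 11 were tested, with 3 up and 3 down at 12 h and 1 up and 6 down at 96 h. Of all genes tested, 8.46% were up and 5.83% down at 12 h, and 12.5% up and 11.1% down at 96 h. CDH1, which encodes E-cadherin, was at a mean of 8.01 CPM at 12 h and 0.666 CPM at 96 h, against 35.9 CPM at 0 h. KRT7 changed by 1.13 ± 0.17 at 12 h and was at 0.41 ± 0.17 at 96 h without passing. Markers of other cell types were near 0 or low. Summed over the 6 of 12 immune markers with a row, the level was 1.997 to 2.33 CPM at 96 h, against 10.4 to 11.003 CPM at 0 h, and the 9 of 10 fibroblast markers with a row summed to 4.66 to 7.78 CPM at 96 h, against 0.548 to 2.90 CPM at 0 h. The 7 of 10 endothelial markers with a row summed to 46.0 to 49.9 CPM at 12 h, against 3.48 to 6.30 CPM at 0 h, and most of it was ESAM, an adhesion molecule, at a mean of 47.8 CPM at 12 h, against 4.61 CPM at 0 h. The endothelial sum was 41.1 to 55.5 CPM at 24 h, 19.6 to 27.4 CPM at 48 h and 4.67 to 9.99 CPM at 96 h. PECAM1 and CDH5 had 1 UMI each over all libraries. A link between this sum and HNF4A was not tested.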

How the data were processed

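A549 cells were profiled by CEL-Seq2 in 12 libraries, 2 for each of 6 times, with groups taken from the sample labels. The table deposited by the authors holds UMI counts per gene and well, whole numbers that are not normalized. Per the labels, the tools behind the counts include featureCounts 2.0.1, UMI-tools, the aligner HISAT2 2.2.1 with genome GRCh38, and Trim Galore 0.6.7. Neither annotation release nor strandedness is given in the sources used here. Replicate 1 and replicate 2 carried different barcode sets with 0 shared barcodes.

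Wells with 100 to 40000 UMIs, 2000 to 7000 genes and at most 35% mitochondrial counts were kept, and protein-coding counts were summed per library. Single cells were sorted, and no doublet caller was run. Sums were tested with edgeR 4.0.16 in R 4.3.3 (TMM, filterByExpr, robust quasi-likelihood F test, 1 mean per time, 12 libraries, 6 residual degrees of freedom, Benjamini-Hochberg threshold 0.05 over 10465 genes, 8 comparisons). The common biological coefficient of variation was 0.129. SE is the absolute log2 change over the square root of F. Alternatives were DESeq2 1.42.0, RLE scaling, library totals, no filter, a replicate block, all gene types, library sums thinned to the smallest, stricter limits on cells and each library left out. Python 3.11.15 and matplotlib 3.10.9 were used for shares and figures. The fit was tested on simulated data.

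The members and the 11 gene lists, written by hand, were chosen with earlier results of these data known. Named genes are the members, the 3 most similar genes of each, and per list up to 4 genes with the lowest adjusted p at 96 h and up to 2 more at 12 h. Some of these are not reported here. MUC5B, defining cell type markers and genes beside the members were named outside this rule, MUC5B after its values were seen. Promoter windows are from RefSeq (GRCh38.p14), and positions are from GENCODE 44. Windows were read for 6 of 8 members: FOXA2 had no start among them, and CEBPD was left out of the reading.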

Additional observations from a re-analysis of the deposited data

Results flagged for a closer look

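Wells outside the limits on cells entered no comparison, and molecules of 7 factors were counted there, above the 3 counts that a count of 0 allows. HNF4A had 600 UMIs in these 2737 wells, FOXA1 200, FOXA2 313, GATA6 32, CEBPB 1281, CEBPD 246 and NR0B1 241, and CEBPA had 0. Of these wells, 119 exceeded the upper limits on UMIs or genes. Summed over such wells of each time, HNF4A was at 23.8 CPM at 0 h, 22.3 CPM at 0.5 h, 132 CPM at 12 h, 115 CPM at 24 h, 95.4 CPM at 48 h and 87.0 CPM at 96 h. NR0B1 was at 37.7 CPM at 0 h, 78.4 CPM at 0.5 h, 3.43 CPM at 12 h, 4.92 CPM at 24 h, 8.37 CPM at 48 h and 8.61 CPM at 96 h. These sums cover 12 to 40 wells per time and have no replicate error here. With 2 libraries per time, no library could be examined as an outlier within its group.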

How the results depend on the processing

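Over the 300 alternatives to the 15 called changes of members against 0 h, 282 kept their direction and stayed past the threshold and 18 lost it, 11 of FOXA2 and 7 of CEBPD. All 80 of HNF4A and all 80 of NR0B1 kept both. These counts include fits without a library of a time outside the comparison, which leave its own libraries unchanged, so they overstate stability. Calls lost without a library of the comparison itself are given above for FOXA2 and CEBPD. The adjusted p of HNF4A at 96 h reached 0.0275 at most, with log2 changes of 1.26 to 1.89. Scaling by RLE or library totals moved the median of all genes by at most 0.0503. Log2 changes follow, and where no cause is named the cause was not tested.

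Deviations of same-numbered libraries correlated at 0.14 to 0.275 among 0 h, 12 h, 24 h and 48 h, at 0.0678 to 0.0870 between these and 96 h, and at -0.0926 to -0.0171 with 0.5 h. Since not every pair exceeded 0.1, the numbers were not taken to pair the libraries. With a replicate block, calls against 0 h numbered 56 genes (0.5 h), 1897 genes (12 h), 1709 genes (24 h), 2369 genes (48 h) and 2811 genes (96 h), against 46, 1495, 1379, 1935 and 2477 genes without it. Under the block, 21 genes passed at 24 h against 12 h, 823 at 48 h against 24 h and 237 at 96 h against 48 h, and no call of a member changed. Without the filter on low counts, 31 genes passed at 24 h against 12 h and 258 at 96 h against 48 h. DESeq2 called 2 genes at 24 h against 12 h and gave FOXA2 -0.68 at 24 h against 0 h without a call. Scaling by library totals put FOXA1 at -0.036 at 24 h against 12 h.

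With each library sum thinned to the smallest, which leaves fewer UMIs, the calls were 962 genes (12 h against 0 h), 891 genes (24 h against 0 h) and 345 genes (48 h against 24 h). There FOXA1 was at -0.032 at 0.5 h and -0.20 at 12 h, FOXA2 at -0.65 at 24 h without a call, and NR0B1 at -0.0086 at 48 h against 24 h. In the 206 stricter cells, calls against 0 h numbered 13 genes at 0.5 h, 302 genes at 12 h, 246 genes at 24 h, 428 genes at 48 h and 630 genes at 96 h. Between late times these cells gave 1 gene (24 h against 12 h), 63 genes (48 h against 24 h) and 29 genes (96 h against 48 h). FOXA2 was there at -1.30 (12 h), -0.54 (24 h), -0.98 (48 h) and -1.65 (96 h), and CEBPD at -1.68 (12 h), -1.53 (24 h) and -0.79 (48 h), none past the threshold. CEBPB was at -0.39 at 12 h, -0.067 at 96 h and -0.15 at 96 h against 48 h, CEBPD at 0.15 and NR0B1 at -0.75 at 24 h against 12 h.

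Leaving out each library in turn gave 23 to 51 genes at 0.5 h against 0 h, 917 to 1628 genes at 12 h, 858 to 1502 genes at 24 h, 1248 to 1990 genes at 48 h and 1490 to 2625 genes at 96 h. The lowest count up to 48 h came without 0 h replicate 1, and that of 96 h without 96 h replicate 2. Between late times the counts were 0 to 3 at 24 h against 12 h, 269 to 541 at 48 h against 24 h (lowest without 24 h replicate 1) and 32 to 134 at 96 h against 48 h (lowest without 96 h replicate 1). Ranges for members, against 0 h, were -0.32 to 0.42 for GATA6 and -0.57 to 0.16 for NR0B1 at 0.5 h, -0.89 to -0.62 for FOXA2 and -0.068 to 0.21 for CEBPB at 12 h, and -0.82 to -0.50 for FOXA2 and -0.043 to 0.69 for GATA6 at 24 h. At 48 h they were -0.82 to 0.35 for GATA6, -0.18 to 0.26 for CEBPB and -0.90 to -0.78 for CEBPD, and at 96 h -0.57 to 0.046 for CEBPD. At 24 h against 12 h they were -0.26 to 0.043 for HNF4A, -0.048 to 0.074 for FOXA1, -0.091 to 0.27 for FOXA2, -0.22 to 0.13 for GATA6, -0.76 to 0.31 for CEBPD and -0.074 to 0.66 for NR0B1. At 48 h against 24 h they were -0.018 to 0.20 for HNF4A, -0.10 to 0.17 for FOXA1, -1.12 to 0.033 for GATA6, 0.084 to 1.18 for CEBPD and -0.15 to 0.55 for NR0B1. At 96 h against 48 h they were -0.20 to 0.090 for FOXA1 and -0.026 to 0.41 for CEBPB. Of 84 shares at another depth, 79 moved by more than the spread between libraries, as shares rise with UMIs per cell.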
